A study of Mus musculus with 8 samples.

Results

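The genes of Wnt signalling described here are the secreted Wnt ligands, their Frizzled receptors, the co-receptors Lrp5, Lrp6, Lgr4 and Lgr5, the secreted antagonists of the Sfrp and Dkk families, β-catenin (Ctnnb1) with the proteins that mark it for destruction (Axin1, Axin2 and Apc), and the TCF/LEF transcription factors. They were taken from the count table by gene symbol alone, which gave 49 of its 55536 rows. RNA was measured in MIN6 cells, a line of insulin-producing β cells from a mouse pancreatic tumour, wild type by its labels, 48 h after transfection with Lipofectamine 3000. The control cells (n = 4) carried pcDNA 3 without an insert. The Klf4-transfected cells (n = 4) carried pGloMyc-Klf4, from which the zinc-finger transcription factor Klf4 is made. The comparison asks which transcripts change when Klf4 is made in excess in these cells. Both groups share the cell line, the transfection reagent and the time, and they differ in the plasmid backbone as well as in Klf4. The share of cells that took up a plasmid is not given in the sources used here, so each value is an average over transfected and untransfected cells. The labels place replicates 1 and 2 of both groups in batch 1 and replicates 3 and 4 in batch 2.

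Wnt proteins are lipid-modified ligands that act over short distances. Binding of a Wnt to a Frizzled receptor and Lrp5 or Lrp6 stops the destruction complex from degrading β-catenin, which then enters the nucleus and works with TCF/LEF factors on target genes such as Axin2. Other Wnt ligands act through planar polarity or calcium signals without β-catenin, and in the pancreas the pathway is known for roles in organ growth and in β-cell proliferation and maturation.

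The libraries held 45417853 to 52731176 counts, so 1 count was worth about 0.02 CPM, the unit of counts scaled to library size that is used throughout. Klf4 itself was at 40.1 ± 3.11 CPM (SD, n = 4) in control and 5040 ± 567 CPM (SD, n = 4) in Klf4-transfected libraries, as the labels say. Summed over 10 β-cell markers, the level was 25330 to 32110 CPM in control and 23660 to 32360 CPM in Klf4 libraries, so the defining genes of the labelled cell type were high in both groups. Of the 10, 5 were lower with Klf4 and 0 higher, where 15.5% of all tested genes were lower. The log2 fold changes of the 5 ran from -0.07 (Iapp) to -0.22 (Slc30a8), with Pdx1, Mafa and G6pc2 between. The groups of Iapp, Pdx1 and Mafa overlapped. Several genes of other cell types were higher with Klf4 in edgeR's quasi-likelihood test. Of 7 fibroblast markers 3 rose (Dcn, Pdgfra and Col1a1), with a summed level of 2.65 to 3.92 CPM in control and 21.1 to 27.5 CPM in Klf4 libraries, while Lum was at 0 counts in all libraries and Col3a1 at 3 counts or fewer. Of 5 keratinocyte markers 1 rose (Krt14), with a summed level of 3.82 to 4.24 CPM in control and 21.6 to 33.2 CPM in Klf4 libraries, while Trp63 was at 0 counts throughout. Of 5 duct markers 4 rose, with 56.9 to 88.0 CPM in control and 73.7 to 112.0 CPM in Klf4 libraries. Of 4 endothelial markers 1 rose (Cdh5). Among all tested genes 21.1% were higher. Dcn, Pdgfra, Krt14 and Cdh5 could be tested only through their counts in the Klf4 libraries, and 99.3% of all genes with this pattern were called higher. Most of the fibroblast sum in Klf4 libraries came from Dcn, and most of the keratinocyte sum from Krt14. The part of these genes' cell types in the results below was not tested.

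The Wnt ligands that changed were all higher in Klf4-transfected cells, the Frizzled receptors changed by less than 0.5 on the log2 scale where they passed the test, and the TCF/LEF factors that could be tested rose. Of the 49 genes, 34 had enough counts to be tested, 20 were higher, 4 were lower and 10 did not pass the test (edgeR's quasi-likelihood test, Benjamini-Hochberg adjusted p under 0.05 over all 18266 tested genes). Among all tested genes 36.6% were called changed, 21.1% higher and 15.5% lower. The median log2 fold change of the 34 genes was 0.42, also with the gene absent from control set at its lower bound, and that of all tested genes was -0.01. A log2 fold change of at least 1 was found for 13 of the 34, against 8.5% of all tested genes. In 18 of the 34 all Klf4 libraries lay above all control libraries and the gene passed the test, where 17.2% of all tested genes had all Klf4 libraries above all control libraries and 8.93% had them all below. Of the 34 genes 8 could be tested only through their counts in the Klf4 libraries, as described below. All 8 are among the 13 and among the 18, and they raise the median, so these values are partly set by the filter. Because RNA came from whole cultures, fewer cells expressing a gene and less RNA per cell cannot be told apart.

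The filter on low counts shaped which genes could be tested. The tested genes Wnt1, Wnt2b, Wnt7a, Wnt7b, Wnt8b, Lgr5, Tcf7l1 and Tcf7l2 reached its minimum of 0.204 CPM in all 4 Klf4 libraries and in 0 control libraries. All 8 were called higher, but they passed the filter only through the group in which they were high, and 99.3% of all genes with this pattern were called higher. Among the 28 members whose log2 CPM averaged 0 or more over all libraries, 15 were higher and 4 lower, against 21.2% higher and 19.4% lower of all genes at that level. Because the average includes the Klf4 libraries, Wnt1, Wnt2b and Wnt7b of the 8 are among the 15. The plot of log2 fold changes sets the tested genes side by side by role.

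**Figure D1:**
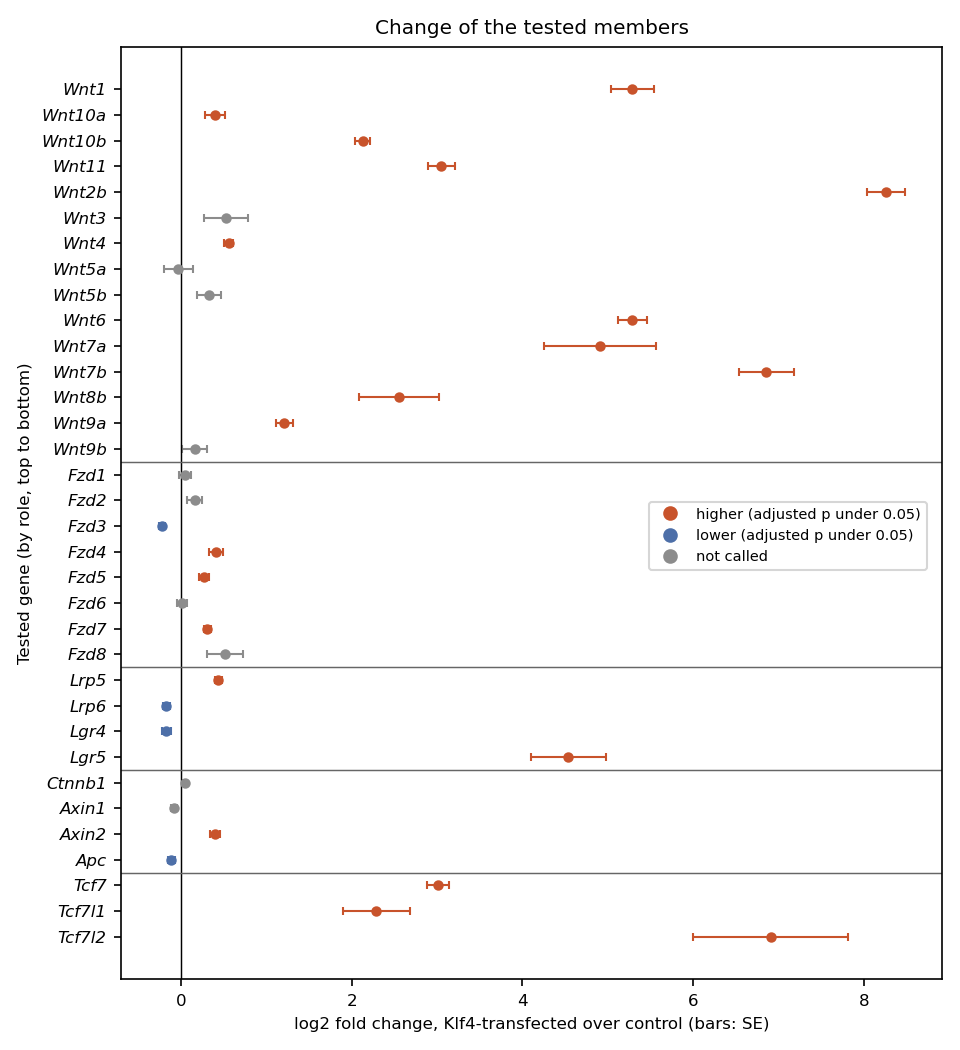
Log2 fold change (horizontal axis, Klf4-transfected over control, bars are standard errors) of the 34 tested genes, ordered by role from Wnt ligands at the top to TCF/LEF factors at the bottom. The 20 genes that were higher, the 4 that were lower and the 10 that did not pass the test differ in colour, and changes over 1 are found for Wnt ligands, Lgr5 and the TCF/LEF factors.

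Among the 19 Wnt ligand genes, 15 were tested, 11 rose and 0 fell, with a median log2 fold change of 2.13. Of the 15, 5 (Wnt1, Wnt2b, Wnt7a, Wnt7b and Wnt8b) passed the filter on low counts only through the Klf4 libraries. All 5 were called higher, and they raise the median. Of the 12 ligand genes whose log2 CPM averaged 0 or more, 9 were higher and 0 lower. That average includes the Klf4 libraries, and Wnt1, Wnt2b and Wnt7b are among the 9, so this count is partly set by the filter too. Of all genes at that level 21.2% were higher and 19.4% lower. In control cells Wnt4 was the most abundant ligand per length of exon, at 7.45 ± 0.793 CPM per kb (SD, n = 4), followed by Wnt10b at 1.55 ± 0.457 CPM per kb, Wnt9a at 1.22 ± 0.223 CPM per kb and Wnt10a at 1.21 ± 0.297 CPM per kb. The last 3 did not differ beyond their spread. In Klf4-transfected cells the order was Wnt4 at 10.9 ± 0.375, Wnt10b at 6.74 ± 1.21, Wnt6 at 2.90 ± 0.733, Wnt9a at 2.80 ± 0.140 and Wnt2b at 2.43 ± 0.666 CPM per kb, and the last 3 of these lay within their spread of each other.

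The Wnt ligand with the largest fitted change was Wnt2b (ENSMUSG00000027840, chromosome 3 from 104945272 to 104961921 on the minus strand), a ligand that can signal through β-catenin. Its counts were 0, 2, 3 and 1 in control libraries 1 to 4 and 408, 356, 706 and 618 in Klf4 libraries 1 to 4. Every Klf4 library was far above every control library, and the mean level rose from 0.0307 ± 0.0262 to 10.2 ± 2.80 CPM (SD, n = 4 each), 334-fold, with a log2 fold change of 8.26 (SE 0.22, adjusted p = 1.48e-18 in edgeR's quasi-likelihood test). Wnt7b, a ligand of epithelia in lung, skin and kidney (ENSMUSG00000022382, chromosome 15 from 85535437 to 85582473 on the minus strand), had 2, 0, 0 and 4 counts in control and 197, 153, 201 and 237 counts in Klf4 libraries. Its mean level rose 124-fold, with a log2 fold change of 6.86 (SE 0.32, adjusted p = 6.3e-14 in edgeR). Exons of Wnt7b overlap an antisense gene by 324 bases, and with no stated strand setting of the counting its value is uncertain to that extent.

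Wnt6 and Wnt1 rose by the same log2 fold change from low control levels. Wnt6 (ENSMUSG00000033227, chromosome 1 from 74771892 to 74785322 on the plus strand) had 4, 7, 10 and 10 counts in control and 243, 239, 401 and 414 counts in Klf4 libraries. Its log2 fold change was 5.29 (SE 0.17, adjusted p = 8.7e-17 in edgeR). Wnt1, the founding mammalian member of the family and an activator of β-catenin signalling (ENSMUSG00000022997, chromosome 15 from 98789857 to 98793837 on the plus strand), had 8, 4, 7 and 2 counts in control and 230, 162, 212 and 282 counts in Klf4 libraries. Its log2 fold change was 5.29 (SE 0.25, adjusted p = 5.25e-14 in edgeR). For both genes the groups were far apart, and batch 2 alone gave 5.23 for Wnt6 and 5.64 for Wnt1, against 5.40 and 4.97 in batch 1 alone.

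Wnt7a, a close relative of Wnt7b, stayed near the detection limit in control cells, with 0, 0, 3 and 0 counts, and had 32, 10, 32 and 35 counts in Klf4 libraries. The ratio of counts scaled to library size was 34.7, with an exact 95% interval of 11.6 to 171 that covers counting error only, and the fitted log2 fold change was 4.91 (SE 0.66, adjusted p = 2.45e-06 in edgeR). Klf4 library 2 stood below the other Klf4 libraries but above all control libraries. Wnt8b, a ligand known from the developing forebrain, had 2, 3, 3 and 2 counts in control and 14, 17, 16 and 17 counts in Klf4 libraries. Its log2 fold change was 2.56 (SE 0.47, adjusted p = 0.000135 in edgeR), at a level that stayed under 0.4 CPM in every library.

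Wnt11, Wnt10b and Wnt9a rose from levels that were well counted in control cells. Wnt11, a ligand mostly linked to signalling without β-catenin, was at 0.319, 0.555, 0.690 and 0.704 CPM in control and 4.10, 3.67, 5.42 and 5.65 CPM in Klf4 libraries. Its log2 fold change was 3.05 (SE 0.16, adjusted p = 2.5e-13 in edgeR), and its exons overlap a processed pseudogene on the opposite strand by 364 bases, so reads of both could not be told apart without strand. Wnt10b, an activator of β-catenin signalling known for holding back fat-cell formation (ENSMUSG00000022996, chromosome 15 from 98770712 to 98778150 on the minus strand), was at 4.80, 3.53, 7.26 and 5.45 CPM in control and 19.2, 19.7, 25.2 and 27.5 CPM in Klf4 libraries. The lowest Klf4 library was above the highest control library, and the log2 fold change was 2.13 (SE 0.09, adjusted p = 3.45e-15 in edgeR). Wnt9a, a ligand known from joint formation, was at 4.55, 4.56, 2.98 and 4.14 CPM in control and 9.75, 8.88, 8.96 and 9.69 CPM in Klf4 libraries, with a log2 fold change of 1.21 (SE 0.10, adjusted p = 1.54e-09 in edgeR).

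Wnt4, the most abundant ligand in both groups and one known from kidney and female reproductive tract development, was at 33.3, 34.7, 27.4 and 29.7 CPM in control and 47.2, 44.5, 44.4 and 47.1 CPM in Klf4 libraries. The groups did not overlap, and the log2 fold change was 0.56 (SE 0.05, adjusted p = 5.04e-09 in edgeR). Wnt10a, a ligand known from tooth and hair development, had a log2 fold change of 0.40 (SE 0.12, adjusted p = 0.0101 in edgeR). Its groups overlapped over all libraries but not within either batch, and its adjusted p in edgeR was 0.353 in batch 1 alone and 0.00996 in batch 2 alone. The call of Wnt10a was lost without control replicate 4 (adjusted p = 0.0714 in edgeR) and without the batch term (adjusted p = 0.237 in edgeR). The ligands tested without a call were Wnt3 with 0.53 (SE 0.26, adjusted p = 0.124 in edgeR), Wnt5b with 0.33 (SE 0.14, adjusted p = 0.0633 in edgeR), Wnt9b with 0.16 (SE 0.15) and Wnt5a with -0.03 (SE 0.17) on the log2 scale. Wnt5a, the best-known ligand of signalling without β-catenin, differed between batches, with 2.65 to 3.21 CPM in the libraries of batch 1 and 0.994 to 1.91 CPM in those of batch 2 (batch term, adjusted p = 0.000144 in edgeR). Exons of Wnt5a overlap an antisense gene by 358 bases. Wnt2, Wnt3a, Wnt8a and Wnt16 were not tested. Wnt2 had 3 counts over all Klf4 libraries, Wnt16 had 5, Wnt3a had 9 and Wnt8a had 15, against 0 in control for the first 3 and 1 for Wnt8a.

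**Figure D2:**
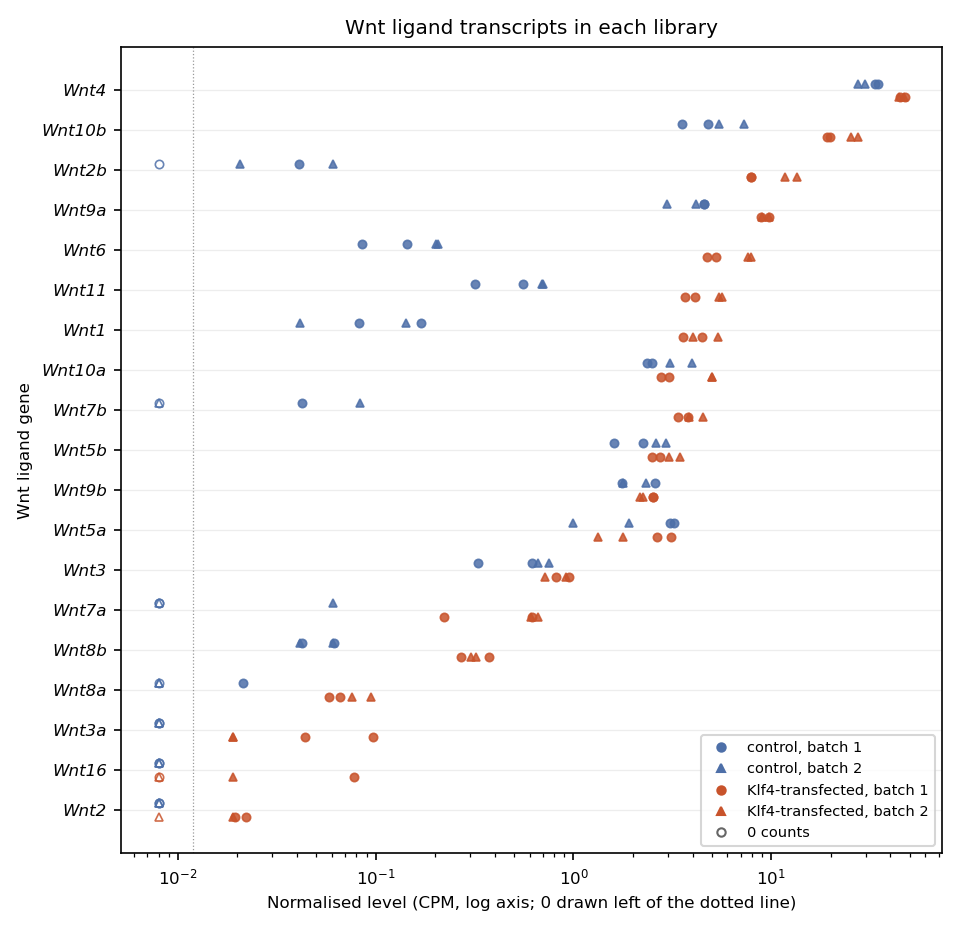
Level of each Wnt ligand gene (horizontal axis, CPM on a log axis, libraries at 0 drawn left of the dotted line) with 1 point per library, control and Klf4-transfected libraries in different colours, batch 1 as circles and batch 2 as triangles. Wnt2b, Wnt7b, Wnt6 and Wnt1 have control points at or under 0.207 CPM and Klf4 points at 3.38 CPM or above, while the points of Wnt5a, Wnt9b and Wnt3 mix.

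The summed level of the 19 ligand genes was 49.9 to 53.7 CPM in control and 109.0 to 132.8 CPM in Klf4 libraries. Per length of exon it was 13.6 ± 0.176 CPM per kb in control and 33.7 ± 3.61 CPM per kb in Klf4 libraries (SD, n = 4 each), so the Klf4 libraries were above the control libraries by several times the spread of either group. The make-up of this sum shifted as well, described here without a test. Wnt4 held 55.0 ± 5.42% of it in control and 32.7 ± 3.45% in Klf4 libraries, although its own level rose. Wnt10b went from 11.4 ± 3.42% to 19.9 ± 1.56%, Wnt6 from 0.539 ± 0.199% to 8.53 ± 1.35%, Wnt2b from 0.0539 ± 0.0459% to 7.15 ± 1.33% and Wnt1 from 0.337 ± 0.177% to 5.43 ± 0.648%.

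**Figure D3:**
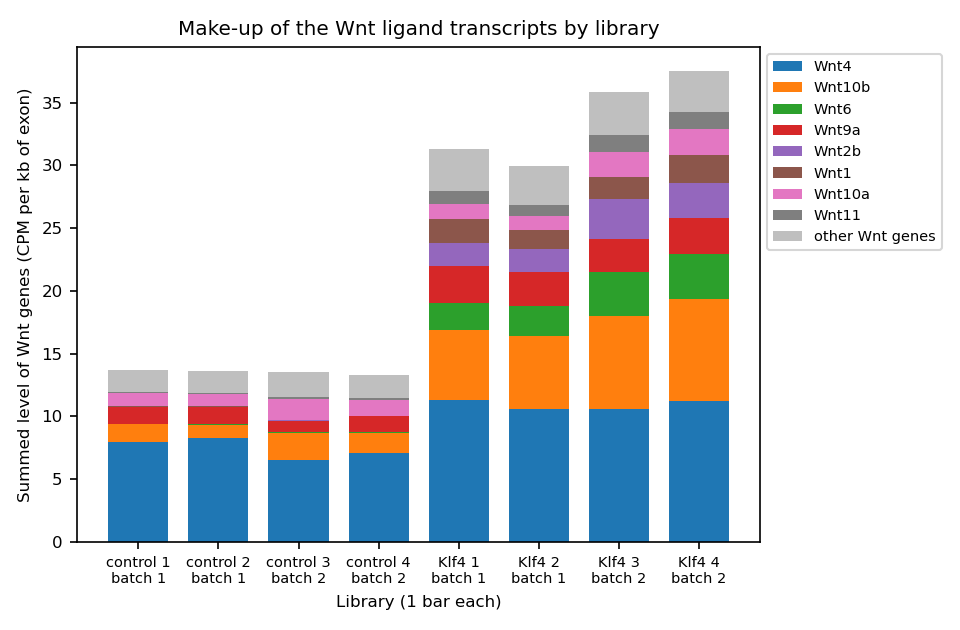
Summed level of the Wnt ligand genes in each library (vertical axis, CPM per kb of exon), 1 stacked bar per library with the contribution of each ligand in its own colour. The 4 control bars average 13.6 CPM per kb and are mostly Wnt4, and the 4 Klf4 bars average 33.7 CPM per kb with added parts for Wnt10b, Wnt6, Wnt2b and Wnt1.

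In the genome 8 of the ligand genes form 4 pairs of neighbours with 0 protein-coding genes between them, and their changes are given side by side. Wnt10b and Wnt1 lie 11.7 kb apart on chromosome 15 and point away from each other, with log2 fold changes of 2.13 and 5.29. Wnt6 and Wnt10a lie 6.2 kb apart on chromosome 1 on the same strand, with 5.29 and 0.40. Wnt3a and Wnt9a lie 16.2 kb apart on chromosome 11, where Wnt9a rose by 1.21 on the log2 scale and Wnt3a had 9 counts in all. Wnt9b and Wnt3 lie 24.3 kb apart on the same chromosome, and neither passed the test. The difference in response within a pair was not tested.

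Klf4 is a zinc-finger factor known to bind GC-rich boxes such as GGGNGTG. The 250 bases upstream of the start of Wnt6, Wnt10b and Wnt1 are shown because these 3 ligands rose by 2.13 or more on the log2 scale and sit in the neighbouring pairs described above. The sequences are those of RefSeq on GRCm38.p6, read 5′ to 3′ on the strand of the gene, with matches to GGGNGTG on either strand (CACNCCC on the reverse) in capitals. They are chr1:74771642-74771891 on the plus strand for Wnt6, chr15:98778151-98778400 on the minus strand for Wnt10b and chr15:98789607-98789856 on the plus strand for Wnt1.
Wnt6: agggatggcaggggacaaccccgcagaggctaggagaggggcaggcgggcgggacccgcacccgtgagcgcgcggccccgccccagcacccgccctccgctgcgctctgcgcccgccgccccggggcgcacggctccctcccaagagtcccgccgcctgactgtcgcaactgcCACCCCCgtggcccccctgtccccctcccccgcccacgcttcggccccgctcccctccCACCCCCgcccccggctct
Wnt10b: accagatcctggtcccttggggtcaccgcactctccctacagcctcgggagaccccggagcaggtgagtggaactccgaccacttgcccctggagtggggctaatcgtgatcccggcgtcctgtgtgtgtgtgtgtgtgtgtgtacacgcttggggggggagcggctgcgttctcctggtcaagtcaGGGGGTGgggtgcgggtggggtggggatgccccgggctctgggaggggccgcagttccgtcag
Wnt1: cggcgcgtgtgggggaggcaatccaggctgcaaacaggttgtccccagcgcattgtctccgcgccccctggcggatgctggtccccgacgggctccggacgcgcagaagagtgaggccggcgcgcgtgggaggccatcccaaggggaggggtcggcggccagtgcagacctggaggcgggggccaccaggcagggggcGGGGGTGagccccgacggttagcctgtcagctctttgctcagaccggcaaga
The Wnt6 sequence held 2 matches, and the other two held 1 each. Of the 49 genes 32 had promoters in the table, 41 in all. The first transcribed bases were found in a GENCODE M21 transcript for 27 of the 41. GGGNGTG was in 17 of the 41 (41.5%) and in 26.1% of all 32851 promoters of the same length. Overlapping windows of Lef1 share 1 of these sites, and the 41 were not matched to the other promoters in GC content. Among promoters of genes that were higher, 7 of 19 held it, and among the other promoters of the set 10 of 22 did. These 22 include promoters of genes that were not tested, and most of the 10 are theirs (Lef1, Fzd9, Wnt16, Wnt3a and Dkk1). The shares therefore do not compare higher genes with tested genes that were not higher. The looser GGGNGNG, which contains every GGGNGTG match, was in 97.6% against 63.9% of all promoters, and CACCC, which can overlap both, was in 70.7% against 52%. The TCF/LEF core CTTTGA was in 12.2% against 13.8%, and all motifs were searched on both strands. Such a match describes the sequence and is no evidence of binding.

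Frizzled receptors kept nearly the same summed level, 187.2 to 209.3 CPM in control and 188.9 to 205.6 CPM in Klf4 libraries. Of the 10 genes 8 were tested, 3 rose and 1 fell, with a median log2 fold change of 0.22, beside 21.1% higher and 15.5% lower among all tested genes. Fzd7 rose by 0.31 (SE 0.04, adjusted p = 8.24e-06 in edgeR), Fzd4, which also binds the ligand norrin, by 0.41 (SE 0.08, adjusted p = 0.000472 in edgeR) and Fzd5 by 0.27 (SE 0.06, adjusted p = 0.000459 in edgeR) on the log2 scale. Fzd3, a receptor of axon guidance and planar polarity, fell by 0.22 on the log2 scale (SE 0.04, adjusted p = 8.42e-05 in edgeR). Per length of exon Fzd3 led in control with 8.79 ± 0.718 CPM per kb ahead of Fzd7 with 6.22 ± 0.157, and in Klf4 libraries Fzd7 with 7.71 ± 0.438 and Fzd3 with 7.52 ± 0.523 CPM per kb did not differ beyond their spread. The Fzd5 call was lost without the batch term (adjusted p = 0.0749 in edgeR), and its exons overlap an opposite-strand transcript by 1233 bases. Fzd1, Fzd2, Fzd6 and Fzd8 did not pass the test, with log2 fold changes of 0.05, 0.16, 0.01 and 0.52, and exons of Fzd6 overlap another transcript by 152 bases.

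Fzd10 was removed by the filter on low counts but had 1, 3, 0 and 0 counts in control and 17, 21, 8 and 22 counts in Klf4 libraries. The groups did not overlap, and the ratio of scaled counts was 16.3 with an exact 95% counting interval of 6.06 to 61.3. Fzd9, also not tested, had 1 count in control and 5 in Klf4 libraries.

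All 4 co-receptor genes changed, 2 in each direction, where 21.1% of all tested genes were higher and 15.5% lower. Their summed level was 141.2 to 147.7 CPM in control and 143.5 to 151.0 CPM in Klf4 libraries. Lrp5, a co-receptor of β-catenin signalling, was at 44.6, 40.7, 45.6 and 44.4 CPM in control and 55.7, 56.5, 60.7 and 65.3 CPM in Klf4 libraries, with no overlap and a log2 fold change of 0.44 (SE 0.04, adjusted p = 5.62e-09 in edgeR). Lrp6, its close relative, was at 66.9, 69.9, 67.5 and 61.2 CPM in control and 57.7, 63.1, 58.0 and 57.0 CPM in Klf4 libraries. It fell by 0.17 on the log2 scale (SE 0.04, adjusted p = 0.00123 in edgeR), and Klf4 library 2 lay above control library 4, with no overlap within either batch.

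The Lgr proteins are receptors for R-spondins, which keep Frizzled receptors on the cell surface. Lgr4 was at 30.1, 31.4, 34.6 and 35.6 CPM in control and 29.2, 29.4, 30.6 and 27.9 CPM in Klf4 libraries. It fell by 0.17 on the log2 scale (SE 0.05, adjusted p = 0.00785 in edgeR), the groups overlapped over all libraries but not within either batch, and the call was lost in batch 1 alone (adjusted p = 0.411 in edgeR) and without the batch term (adjusted p = 0.0658 in edgeR). Lgr5, a marker of stem cells in gut and other epithelia (ENSMUSG00000020140, chromosome 10 from 115450311 to 115587780 on the minus strand), had 1, 2, 1 and 2 counts in control and 47, 27, 42 and 42 counts in Klf4 libraries. Its counts scaled to library size were 25.2-fold higher with Klf4, with a log2 fold change of 4.54 (SE 0.44, adjusted p = 1.71e-08 in edgeR), and yet stayed under 1 CPM. Lgr5 passed the filter on low counts only through the Klf4 libraries. Per length of exon Lgr4 led this group in control at 5.60 ± 0.441 CPM per kb and Lrp5 in Klf4 libraries at 6.12 ± 0.452 CPM per kb, while Lgr5 reached 0.0755 ± 0.0127 CPM per kb.

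The secreted antagonists were barely expressed, and 0 of the 8 passed the filter on low counts. Their summed level was 0.170 to 0.467 CPM in control and 0.716 to 1.14 CPM in Klf4 libraries. Sfrp2, a decoy that binds Wnt ligands outside the cell, had 0 counts in every control library and 9, 11, 19 and 26 counts in Klf4 libraries. Against a floor of 3 counts over the control group it was at least 20.7-fold higher with Klf4, and its exons overlap an antisense gene by 347 bases. Dkk2, one of the Dickkopf proteins that bind Lrp5 and Lrp6, had 2, 0, 7 and 7 counts in control and 12, 14, 5 and 14 in Klf4 libraries. Dkk3, the divergent member of its family, had 0, 7, 2 and 0 counts in control and 5, 13, 4 and 8 in Klf4 libraries. Sfrp5, the most abundant antagonist per length in control, had 6, 6, 14 and 8 counts in control and 7, 3, 10 and 10 in Klf4 libraries. The groups of Dkk2, Dkk3 and Sfrp5 overlapped. Sfrp1, Sfrp4 and Dkk1 had 7, 9 and 2 counts over all Klf4 libraries and at most 1 in control, and Dkk4 had 0 counts in all 8 libraries.

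**Figure D4:**
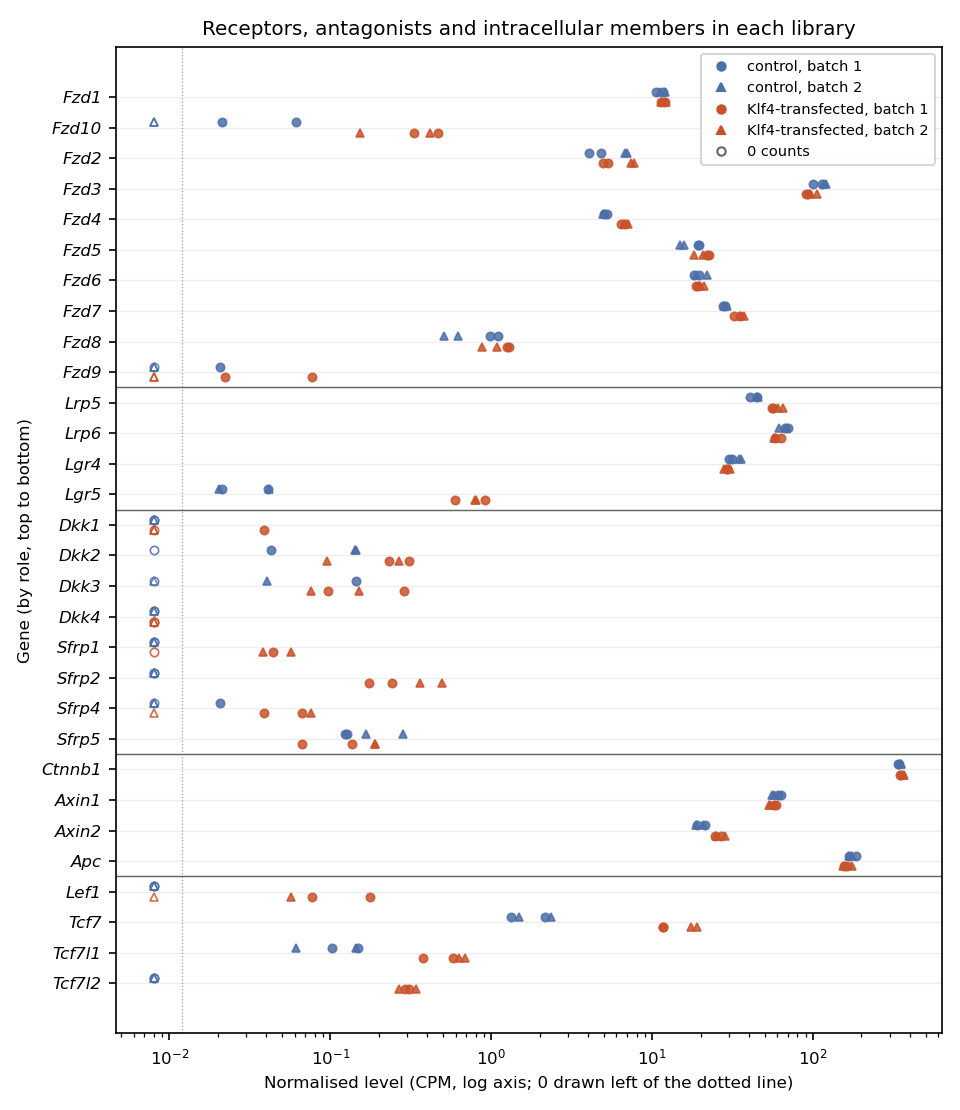
Level of each Frizzled, co-receptor, antagonist, destruction-complex and TCF/LEF gene (horizontal axis, CPM on a log axis, libraries at 0 drawn left of the dotted line) with 1 point per library, control and Klf4-transfected libraries in different colours, batch 1 as circles and batch 2 as triangles. Ctnnb1 lies at 338 to 370 CPM in all 8 libraries, whereas the points of Lgr5, Tcf7, Tcf7l1 and Tcf7l2 fall into separate control and Klf4 ranges.

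Among β-catenin and its destruction complex 1 of 4 genes was higher and 1 lower, both by less than 0.5 on the log2 scale. Of all tested genes 21.1% were higher and 15.5% lower. Ctnnb1 was the most abundant of the 49 genes per length of exon, at 66.6 ± 1.33 CPM per kb in control and 68.8 ± 2.09 CPM per kb in Klf4 libraries (SD, n = 4 each). Ctnnb1 was at 342, 338, 352 and 351 CPM in control and 352, 345, 370 and 362 CPM in Klf4 libraries. Its log2 fold change was 0.05 (SE 0.02, adjusted p = 0.147 in edgeR), the groups overlapped over all libraries but not within either batch, and its exons overlap Ulk4 on the opposite strand by 759 bases. With scaling factors from highly expressed genes alone Ctnnb1 passed the test, at 0.08 (adjusted p = 0.0107 in edgeR). The level of β-catenin protein, which the destruction complex controls, was not measured.

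Axin2, a scaffold of the complex and a widely used readout of β-catenin signalling, was at 21.2, 19.0, 18.8 and 20.8 CPM in control and 24.7, 26.9, 24.95 and 28.3 CPM in Klf4 libraries. The groups did not overlap, and it rose by 0.40 on the log2 scale (SE 0.06, adjusted p = 5.92e-06 in edgeR), an increase of 1.32-fold in mean CPM. Exons of Axin2 overlap an antisense gene by 209 bases, so its value is uncertain to that extent. Axin1, the constitutive scaffold, had a log2 fold change of -0.08 (SE 0.03, adjusted p = 0.0682 in edgeR). Apc, the tumour suppressor of the complex, fell by 0.11 on the log2 scale (SE 0.04, adjusted p = 0.0371 in edgeR), with overlapping groups. That call was lost in 8 of 19 alternatives, with adjusted p from 0.00104 to 0.456 over all of them in edgeR, DESeq2 or limma. The Apc call was lost in batch 2 alone (0.456) and in the fits without control replicate 2 (0.0849), control replicate 3 (0.0546), Klf4 replicate 1 (0.117) or Klf4 replicate 4 (0.131).

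The TCF/LEF factors bind DNA and carry β-catenin to target genes. Their summed level was 1.44 to 2.51 CPM in control and 12.6 to 19.99 CPM in Klf4 libraries, most of it from Tcf7, and all 3 that were tested rose. Tcf7l1 and Tcf7l2 passed the filter on low counts only through the Klf4 libraries, a pattern in which 99.3% of all genes were called higher. Tcf7, known from T-cell development (ENSMUSG00000000782, chromosome 11 from 52252371 to 52283014 on the minus strand), was at 2.17, 1.34, 1.48 and 2.36 CPM in control and 11.6, 11.8, 17.5 and 19.0 CPM in Klf4 libraries. Its log2 fold change was 3.01 (SE 0.13, adjusted p = 6.27e-15 in edgeR), with 2.74 in batch 1 alone and 3.26 in batch 2 alone. Per length of exon it was the most abundant of the 4 factors in both groups, at 0.700 ± 0.192 CPM per kb in control and 5.70 ± 1.46 CPM per kb in Klf4 libraries.

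Tcf7l1, mostly a repressor of target genes, had 7, 5, 3 and 7 counts in control and 30, 17, 33 and 36 counts in Klf4 libraries, a log2 fold change of 2.29 (SE 0.39, adjusted p = 5.22e-05 in edgeR). Tcf7l2, a gene linked to type 2 diabetes risk in people, had 0 counts in all 4 control libraries and 15, 14, 18 and 14 counts in Klf4 libraries. It was at least 19.4-fold higher against a floor of 3 counts over the control group. Its edgeR adjusted p was 4.96e-06, and its fitted log2 fold change of 6.91 depends on the prior count and is no bound. The gene is known to be expressed in islets, and whether the authors' counting left out reads of it was not tested, so its 0 and the bound hold for the counts as deposited. Lef1 was not tested, with 0 counts in control and 4, 8, 0 and 3 counts in Klf4 libraries, at least 4.78-fold higher over the group against the same floor although Klf4 library 3 had none. Exons of Tcf7l1 and Lef1 overlap antisense genes, by 179 and 1208 bases.

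Effects agreed in sign between the batches for all 24 genes that changed. These genes were called from both batches together, so this agreement is largely built in. The batches were compared directly with an interaction term. In edgeR's quasi-likelihood test 0 of 34 genes had an effect that differed between batches (0.766% of all tested genes did), 3 had an unadjusted p under 0.05, and DESeq2 also called 0. In batch 1 alone 21 genes of the full set were higher and 3 lower (15.9% and 8.55% of all genes), and in batch 2 alone 21 were higher and 3 lower (20.1% and 9.73%). Each batch was filtered by itself, so genes outside the 34 are among those called higher, Dkk2 and Fzd10 in batch 1 and Sfrp2 in batch 2. Levels themselves differed between batches for 14 of the 34 (25.1% of all genes), among them Wnt2b with 0.68, Wnt10a with 0.67, Wnt6 with 0.65 and Fzd2 with 0.60 higher in batch 2 on the log2 scale.

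Other genes of the pathway were read from a list of 73, of which 65 were tested, 24 were higher and 11 lower, with a median log2 fold change of 0.06. By role, 8 of 11 tested genes for other membrane receptors or modulators rose and 1 fell. Of 16 tested genes of planar polarity and calcium signalling 7 rose and 1 fell, and of 18 tested cytoplasmic transducers 3 rose and 5 fell. Among all tested genes 21.1% were higher and 15.5% lower. Of the 24 higher genes 5 (Nfatc1, Kremen2, Nkd2, Nfatc4 and Notum) passed the filter on low counts only through the Klf4 libraries, a pattern in which 99.3% of all genes were called higher. Of the 58 genes whose log2 CPM averaged 0 or more, 19 were higher and 11 lower, against 21.2% and 19.4% of all genes at that level. That average includes the Klf4 libraries, and Nfatc1 and Kremen2 are among the 19. The largest changes were those of Nfatc1, a calcium-regulated transcription factor, with a log2 fold change of 5.85, Kremen2, a Dickkopf receptor that removes Lrp6 from the surface, with 5.01, and Nkd2, a protein that binds Dishevelled, with 4.27. Nfatc4 had 2.63, and the R-spondin receptor Lgr6 had 2.07. Of these 5, Nfatc1 ranged from 2 to 3 counts in control and from 120 to 222 in Klf4 libraries, and Kremen2 from 1 to 7 and from 76 to 151.

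Notum, an enzyme that strips the lipid from Wnt ligands, had 5, 2, 7 and 7 counts in control and 59, 42, 77 and 91 counts in Klf4 libraries, a log2 fold change of 3.58 (SE 0.31, adjusted p = 2.72e-09 in edgeR). Wif1, which binds Wnt ligands outside the cell, rose by 2.56, and Kremen1 by 1.56 from 12.7 ± 0.412 to 37.5 ± 4.06 CPM. Znrf3, a ubiquitin ligase that removes Frizzled receptors, rose by 0.61 (SE 0.05, adjusted p = 3.1e-09 in edgeR), while its relative Rnf43 had a log2 fold change of -0.46 (SE 0.29, adjusted p = 0.226 in edgeR). Of 2 proteins that Wnt release depends on, neither was called higher. Porcn, which attaches the lipid, had a log2 fold change of -0.14 (SE 0.08, adjusted p = 0.201 in edgeR), and Wls, which carries Wnt ligands to the surface, fell by 0.12 on the log2 scale (SE 0.03, adjusted p = 0.00221 in edgeR). Exons of Notum and Kremen2 overlap antisense genes.

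**Figure D5:**
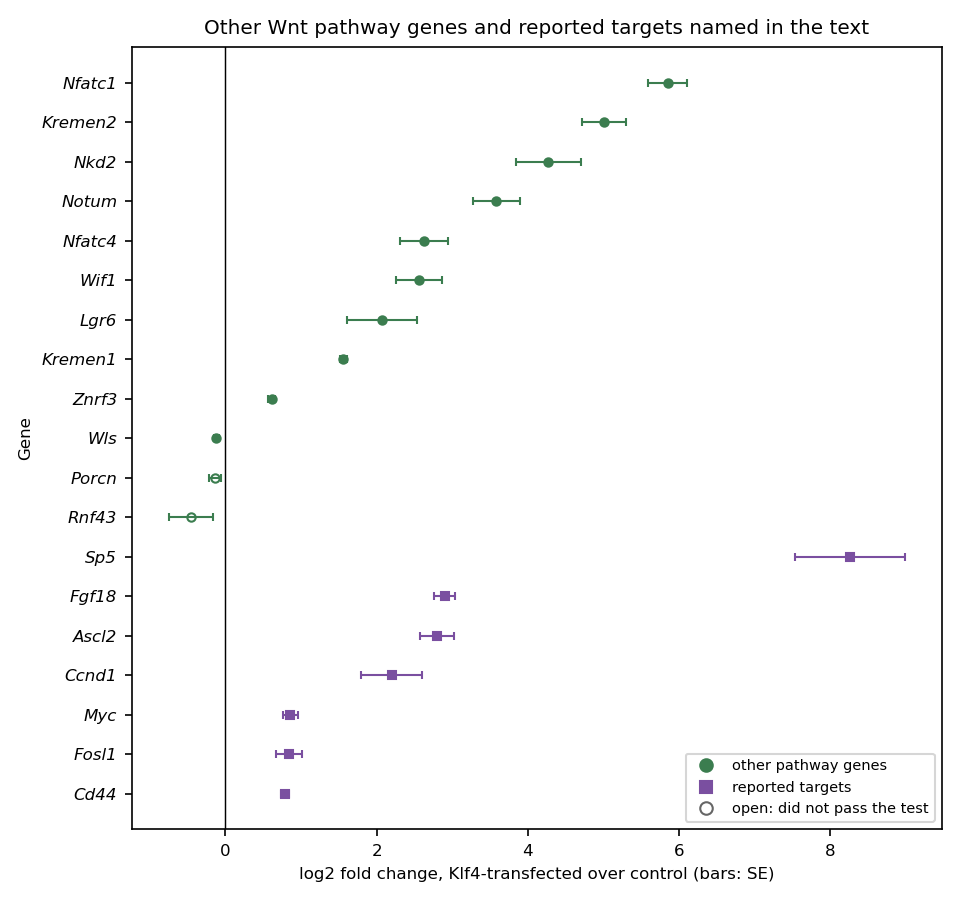
Log2 fold change (horizontal axis, Klf4-transfected over control, bars are standard errors) of the 19 named genes outside the main set, other pathway genes as circles and commonly reported β-catenin and TCF targets as squares, with open symbols for genes that did not pass the test. Sp5 and Nfatc1 have the largest values of the 2 groups, and Wls, Porcn and Rnf43 lie left of 0.

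Of 22 genes commonly reported as targets of β-catenin and TCF, 18 were tested, 12 were higher and 2 lower, with a median log2 fold change of 0.60, beside 21.1% higher and 15.5% lower among all tested genes. Of the 12, 3 passed the filter only through the Klf4 libraries, Sp5 and Ccnd1 among them, and had to differ. Of the 13 whose log2 CPM averaged 0 or more over all libraries, the Klf4 ones included, 9 were higher and 2 lower. Such genes answer to many other factors too, so their direction does not measure the pathway alone. Sp5, a zinc-finger factor among the most direct of these targets, had 0 counts in every control library and 31, 22, 51 and 54 counts in Klf4 libraries, at least 50.3-fold higher against the floor of 3 counts. Fgf18, a growth factor, rose by 2.90, and Ascl2, a stem-cell factor of the gut, by 2.80 on the log2 scale.

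The cell-cycle gene Ccnd1 had 7, 6, 4 and 3 counts in control and 42, 20, 17 and 19 counts in Klf4 libraries, a log2 fold change of 2.20 (SE 0.40, adjusted p = 0.000115 in edgeR). Its exons overlap another protein-coding gene on the opposite strand by 1100 bases. Myc was at 4.10, 3.90, 3.69 and 2.90 CPM in control and 6.29, 7.58, 6.07 and 6.62 CPM in Klf4 libraries, a log2 fold change of 0.86 (SE 0.10, adjusted p = 3.73e-07 in edgeR). Fosl1 rose by 0.84 and Cd44, a surface receptor for hyaluronan, by 0.79, and Fosl1 exons overlap Ccdc85b by 1163 bases. Cd44 also had an effect that was larger in batch 2 (0.97) than in batch 1 (0.61), with an interaction adjusted p of 0.015 in edgeR.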

How the data were processed

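RNA-seq counts of 8 libraries of MIN6 cells were used. The whole-number read counts per gene were deposited by the authors, not normalised and not pooled. Per the submitters' processing notes, FastQC, STAR, featureCounts and edgeR were used with the mm10 build, with no role stated for each. The strand setting and the annotation are not given in the sources used here. All 55536 identifier and symbol pairs match GENCODE M21 (GRCm38), which gave coordinates and exon lengths. The labels' extraction text speaks of islets, but every sample is labelled as MIN6. Reads of the plasmid and of endogenous Klf4 were counted together.

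Counts were analysed in edgeR 4.0.16 (R 4.3.3) with filterByExpr (minimum count 10), TMM factors (0.996 to 1.01) and a quasi-likelihood fit with terms for batch and plasmid, over 18266 genes, and 37270 were left out. P-values were Benjamini-Hochberg adjusted over all tested genes, with a threshold of 0.05. Standard errors were derived from the F statistic. DESeq2 1.42.0 and limma 3.58.1 were alternatives, and the script was tested on simulated data. The p-values measure the spread between libraries that the design text calls biological replicates. Intervals cover counting error only, at 95%, and reads are not independent molecules. The biological coefficient of variation was 4.08%.

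Genes were named by rule: all changed genes of the set, values in every library for those with an absolute log2 fold change of at least 0.5, for untested ones with 10 or more counts in a library and for 8 core genes, and in the pathway and target lists the 8 largest changes of at least 0.5 plus 8 core genes, of which 1 gene is not reported here. The gene set and the lists were chosen with earlier results of these data known. Same-numbered libraries of the 2 groups deviated together (correlations 0.614, 0.459, 0.57 and 0.516 over 10485 genes). Same-numbered libraries also share a batch, which was not removed before these correlations. Libraries of the same batch with different numbers were not compared, so pairing by replicate number beyond the batch was not tested. The labels give the batch that same-numbered libraries share, 2 numbers per batch.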

Additional observations from a re-analysis of the deposited data

Results flagged for a closer look

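Groups of 4 libraries were checked for genes of the set with 10 or more counts in at least 1 library. Of 76 groups, 3 held a library far from the other 3, where a rate of 1 in 20 would give about 3.8. Wnt7a was at 0.0609 CPM (3 counts) in control library 3 and at 0 in the other control libraries. With 0 in the others any count in 1 library is flagged, so that rate does not apply to this group. The same gene was at 0.221 CPM (10 counts) in Klf4 library 2 and at 0.609 to 0.664 CPM in the others. Lrp6 was at 63.1 CPM in Klf4 library 2 and at 57.0 to 58.0 CPM in the other Klf4 libraries.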

How the results depend on the processing

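Of the 24 genes that changed, 20 kept the call in every alternative in which they were tested, none changed sign, and Apc, Wnt10a, Lgr4 and Fzd5 lost it in at least 1. Of the 17 named pathway genes and targets that changed, 15 kept the call, Fosl1 lost it in batch 1 alone and Wls without the batch term. With a block for replicate number in place of the batch term, no call changed in the 49-gene set: 20 were higher and 4 lower. Among the other pathway genes and targets 36 were higher and 12 lower under the block, and over all genes 3724 and 2560. Without a batch term 2 were lower (lost were Apc and Lgr4), as were 8 of the other pathway genes and targets (13 with batch) and 1159 of all genes (2828 with batch). Lower calls over all genes were 1638 with factors from genes whose log2 CPM averaged 6 or more, 1583 in batch 1 alone, 1804 in batch 2 alone and 1696 at an adjusted p under 0.01, and 7 pathway genes and targets were lower in batch 2 alone. Of all calls 57.7% were higher, against 71.8% without the batch term and 72.8% with factors from highly expressed genes. Of the calls in the Wnt set 83.3%, 90% and 88% were. Without the filter Fzd10, Lef1 and Sfrp2 were called higher too. With each library left out in turn, 20 to 24 genes of the set were higher and 3 to 4 lower. Changes of sign concerned genes without a call. Wnt5a was at 0.01 with the highly expressed genes, 0.12 in batch 2 alone and -0.20 to 0.10 with 1 library left out, above 0 without control replicate 4, Klf4 replicate 2 or Klf4 replicate 4. Fzd1 was at -0.01 without control replicate 2 and above 0 without any other library. Fzd6 was at -0.00 without the filter and at -0.04 to 0.04 with 1 library left out, below 0 without control replicate 1 or 4 or Klf4 replicate 2 or 4. Porcn was at 0.07 in batch 1 alone. The causes were not tested. At about 0.02 CPM per count, genes with few counts, such as the antagonists, were not tested with the filter used, and Sfrp2 and Dkk2 were called higher in some alternatives that kept them.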
